A study of Homo sapiens and Mus musculus with 100 samples.

Results

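The 42 genes described here carry the transcriptional answer to low oxygen and the glycolytic pathway, from the transcription factor subunit HIF1A and the oxygen sensors EGLN1 and EGLN3 to glucose transporters, glycolytic enzymes and lactate export. They were taken by gene symbol from 28035 genes in each human table and 24940 in each mouse table. All 42 were listed in every table, 38 of the mouse symbols differing from the human ones in case only. Between 31 and 39 of them passed the filter on low values, depending on the table.

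The study labels 100 samples in 32 groups, read here from 98 columns of 8 tables of messenger RNA levels, and compared vitamin B2 (riboflavin) deprivation with control. HepG2, a human liver tumour line, was sampled in control or deprived medium at days 3, 6, 9 and 12. Caco-2, a human colon tumour line, was sampled in both media at day 9. At day 12, separate HepG2 experiments crossed control and deprived medium with an inhibitor of AhR (the aryl hydrocarbon receptor, which binds small molecules and then switches on genes), with an inhibitor labelled for IDO and TDO (enzymes that open the ring of tryptophan), or with a control against an AhR guide RNA. A further HepG2 experiment crossed DMSO or the treatment labelled Kyn with the AhR inhibitor, in libraries with no label of deprivation. The column headers give a dose of AhR inhibitor in the deprivation experiment only, so the same dose in both cannot be assumed. In the mouse, hepatocytes that all carried the AhR-flox allele received Ad-Cont or Ad-Cre, in control or deprived state, and whole liver came from mice on either diet. Both mouse materials are labelled 4 weeks. Each group held 3 libraries, except the liver groups with 4 columns each. HepG2 and Caco-2 are each 1 tumour line. The sources used here do not name the inhibitors, the guide site, the floxed exon or the oxygen level of the cultures, nor say whether guide-treated cells are 1 clone.

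When oxygen is plentiful, prolyl hydroxylases of the EGLN family mark the HIF alpha subunits for destruction by the VHL complex. When oxygen falls, HIF alpha subunits persist, pair with ARNT and switch on genes whose control regions hold the core letters ACGTG or GCGTG. Their products raise glucose uptake and glycolysis, send pyruvate to lactate instead of the mitochondrion, export acid, modify collagen and secrete signals for vessel growth. HIF is controlled mainly at the protein level, which was not measured here. Liver also uses glycolysis genes for the handling of dietary sugar, through isoenzymes of its own.

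Values are TPM, the transcript share of a library scaled to a fixed total, and each fold change is a log2 difference of TPM + 1 with its standard error. A gene rose or fell where limma's adjusted p, over all genes tested in its table, was under 0.05. Shares of all genes that rose or fell use this threshold. No such share was computed at an unadjusted p, so member counts at that level have nothing to be judged against. The logarithm of TPM + 1 understates changes of genes near or below 1 TPM. Because a 3′ kit was used for the cultured cells, levels were compared between samples and not between genes. Whether the liver libraries used that kit is not certain. The labels do not say whether replicates came from separate cultures or animals. Each p-value therefore sets a difference against the spread of these libraries alone, and that spread may be technical. Libraries held 4049600 to 19644400 reads on the listed transcripts, as recovered from the values. All 6 hepatocyte markers (ALB, APOA1, APOB, TTR, HNF4A and SERPINA1) were present in HepG2, with sums of 4760 to 23400 TPM, and 4 of 5 intestinal markers in Caco-2. In bulk RNA, fewer cells with a transcript and less of it per cell cannot be told apart. GAPDH, PGK1, PGAM1, ENO1 and LDHA have near-identical processed copies that can take their reads, so their values are uncertain.

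At day 3 of deprivation HepG2 cells held slightly more of several hypoxia transcripts. Of 39 members tested 10 rose and 0 fell, against 2.74% and 2% of all genes tested, and the members' median was 0.21 against 0.02 for all genes. At an unadjusted p under 0.05 the numbers were 19 and 0, with no share of all genes at that level to compare. VEGFA, the growth factor of blood vessels, measured 17.2, 18.9 and 18 TPM in controls and 26.7, 26.7 and 22.8 TPM in deprived cells. Its fold change was 0.47 ± 0.07 (limma, adjusted p = 8.31e-05), and the groups did not overlap. PDK1, the kinase that closes the pyruvate dehydrogenase gate, measured 1.58, 2.08 and 1.67 TPM against 3.22, 3.29 and 2.72 TPM, again without overlap (0.55 ± 0.12).

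The other risers at day 3 were regulators, mitochondrial proteins and single enzymes. ANKRD37, a small ankyrin-repeat protein and HIF target, rose by 0.62 ± 0.14, and the transcriptional repressors MXI1 and BHLHE40 by 0.45 ± 0.11 and 0.55 ± 0.13. KDM3A, a histone demethylase, rose by 0.29 ± 0.07. BNIP3 and BNIP3L, which mark mitochondria for removal, rose by 0.31 ± 0.09 and 0.43 ± 0.09. The neuronal enolase ENO2 rose by 0.46 ± 0.12 and GAPDH by 0.16 ± 0.05. HIF1A (0.05 ± 0.06), EGLN3 (0.13 ± 0.20), LDHA (0.14 ± 0.09), the glucose transporter SLC2A1 (0.14 ± 0.07), NDRG1 (0.45 ± 0.16) and CA9 (0.64 ± 0.19, adjusted p = 0.0583) did not pass. Without any 1 of the 6 libraries, between 5 and 7 members rose.

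In control medium, most of the same program rose as the cultures aged. Between day 3 and day 12 of control medium 23 of 39 members rose and 9 fell, while 20.1% of all genes rose and 46.8% fell and the median of all genes was -0.21. CA9, the membrane carbonic anhydrase that disposes of acid (chromosome 9, 35673918 to 35681157, plus strand), went from 0.588, 0.057 and 0.123 TPM at day 3 to 18, 19.6 and 13 TPM at day 9 and 9.55, 10.4 and 6.88 TPM at day 12. Its day 12 to day 3 difference was 2.99 ± 0.19. NDRG1, a stress-induced cytoplasmic protein, rose by 2.41 ± 0.16 and VEGFA by 1.75 ± 0.07. EGLN3, BNIP3L, PDK1 and BNIP3 rose by 1.72 ± 0.20, 1.73 ± 0.09, 1.41 ± 0.12 and 1.01 ± 0.09, while LDHA (0.19 ± 0.09) did not pass.

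Of the 3 glucose entry genes tested, both transporters fell in these controls. SLC2A1, the ubiquitous glucose transporter GLUT1, fell by 1.97 on the log2 scale and the high-affinity transporter SLC2A3 by 2.31, while hexokinase HK2 (-0.17 ± 0.10) did not pass. Phosphofructokinase PFKP fell by 0.76. HIF1A itself fell by 0.46. GPI fell by 0.21 as deposited, but its difference was 0.07 after quantile normalization and 0.03 after median scaling.

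Deprived cells also changed with time. From day 3 to day 12 of deprivation 15 members rose and 6 fell, against 14.4% and 35.3% of all genes, with a median of all genes of -0.12. After quantile normalization the split was 21 to 4, and after median scaling 25 to 4. CA9 had a difference of -0.10 ± 0.19 and EGLN3 of 0.46 ± 0.20, and neither passed. NDRG1 rose by 1.11 ± 0.16, MXI1 by 1.08 ± 0.11, BNIP3L by 0.86 ± 0.09, BNIP3 by 0.70 ± 0.09, PDK1 by 0.70 ± 0.12, VEGFA by 0.62 ± 0.07 and SLC2A1 by 0.28 ± 0.07. SLC2A3, PFKP and the lipid droplet protein HILPDA fell by 1.52, 0.74 and 0.68, and HIF1A (0.06 ± 0.06) and LDHA (0.15 ± 0.09) did not pass.

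**Figure D1:**
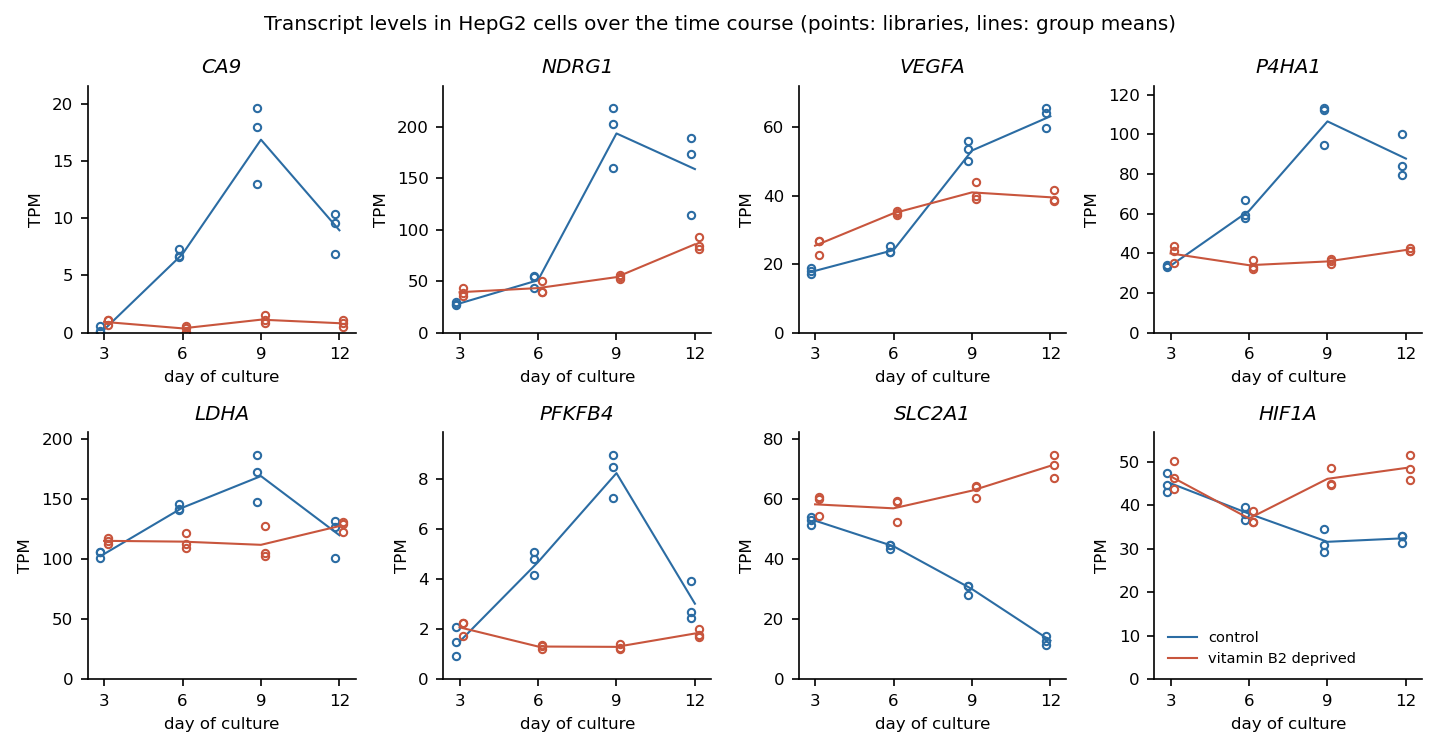
TPM of 8 genes in HepG2 libraries (points) against day of culture, with group means as lines, controls in blue and deprived cells in red. CA9 in controls reaches 13 to 19.6 TPM at day 9 and stays at or below 1.5 TPM in every deprived library, whereas SLC2A1 falls to 11.2 to 14.5 TPM in day 12 controls and stays at 67.1 to 74.7 TPM in deprived cells.

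By day 6 the sign had turned for many members. Deprived cells had 4 higher and 16 lower members, where 19% of all genes rose and 14% fell. CA9 measured 6.7, 7.32 and 6.58 TPM in controls and 0.442, 0.066 and 0.598 TPM in deprived cells, a change of -2.54 ± 0.19 (limma, adjusted p = 9.05e-10). P4HA1, a prolyl hydroxylase that matures collagen, fell by 0.83, aldolase ALDOC by 0.79, SLC2A3 by 0.90, PDK1 by 0.65, BNIP3 by 0.65 and LDHA, the enzyme that makes lactate, by 0.32. VEGFA was still higher in deprived cells (0.51 ± 0.07), as were ENO2 (0.59 ± 0.12), MXI1 (0.36 ± 0.11) and SLC2A1 (0.35 ± 0.07). HIF1A (-0.04 ± 0.06), EGLN3 (-0.07 ± 0.20) and NDRG1 (-0.23 ± 0.16) did not pass.

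Day 9 showed the program at its lowest against controls. Of 39 members 27 fell and 3 rose, against 19.7% and 29.4% of all genes, and the members' median was -0.47 against 0.06. CA9 fell by 3.06 on the log2 scale, with 18, 19.6 and 13 TPM in controls and 0.811, 1.5 and 1.08 TPM in deprived cells. NDRG1 measured 203, 218 and 160 TPM against 54, 51.8 and 56 TPM (-1.81 ± 0.16). P4HA1 measured 112, 113 and 94.4 TPM against 36, 37.2 and 34.4 TPM (-1.54 ± 0.09). In all 3 genes the lowest control lay above the highest deprived library. LDHA fell by 0.59 on the log2 scale.

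By role, the decline at day 9 took in most sensors and targets. Among sensors and regulators EGLN3 (-1.89 ± 0.20), the zinc finger gene ZNF395 (-1.85 ± 0.09), KDM3A (-0.59 ± 0.07) and BHLHE40 (-0.47 ± 0.13) fell. PFKFB4, which makes the activator of phosphofructokinase, fell by 2.01 and its relative PFKFB3 by 1.14. All 3 collagen and matrix genes fell: P4HA1, P4HA2 (-1.01 ± 0.08) and lysyl oxidase LOX (-1.54 ± 0.17). Of 5 mitochondrial genes 4 fell, BNIP3L by 1.20, PDK1 by 0.74, BNIP3 by 0.70 and FAM162A by 0.35, and VEGFA fell by 0.37. Of 10 glycolytic enzymes tested 6 fell, by 0.18 (GAPDH) to 1.04 (ALDOC).

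Only SLC2A1, HIF1A and the pyruvate kinase PKM rose at day 9. SLC2A1 measured 31.1, 30.9 and 28 TPM in controls and 60.2, 64.2 and 64 TPM in deprived cells (1.04 ± 0.07). HIF1A (chromosome 14, 61695401 to 61748259, plus strand) measured 29.3, 30.9 and 34.6 TPM against 44.7, 45 and 48.6 TPM (0.53 ± 0.06), and PKM rose by 0.43 ± 0.09. The transcript of the oxygen-regulated subunit was higher in the libraries in which 27 members were lower.

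The promoters of 4 members among those with the most negative day 9 change are printed to show where the HIF core letters lie. Sequences and coordinates are RefSeq's for GRCh38.p14, written 5′ to 3′ along the gene, with a match to ACGTG or GCGTG (either strand, so also CACGT or CACGC) in capitals. The CA9 stretch is chr9:35673898-35673927 on the plus strand, and its match begins 8 bases before the start of the transcript measured here (35673918), so that its last 10 bases lie in that transcript. The P4HA1 stretch is chr10:73096935-73096964 on the minus strand and lies, match included, inside the transcript measured here, which starts at 73096974. The PFKFB4 stretch is chr3:48556924-48557053 on the minus strand, with a match that begins 46 bases before the measured transcript's start. The EGLN3 stretch is chr14:33951082-33951324 on the minus strand, with 0 matches in the 250 bases before RefSeq's start. RefSeq can list a start other than the measured one, and the windows were shortened, CA9 and P4HA1 to 30 bases around the match and the others at the first annotated start inside.
CA9: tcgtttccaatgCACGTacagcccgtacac
P4HA1: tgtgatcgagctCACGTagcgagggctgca
PFKFB4: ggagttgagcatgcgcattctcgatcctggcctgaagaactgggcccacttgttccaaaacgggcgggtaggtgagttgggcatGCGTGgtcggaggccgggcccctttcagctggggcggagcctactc
EGLN3: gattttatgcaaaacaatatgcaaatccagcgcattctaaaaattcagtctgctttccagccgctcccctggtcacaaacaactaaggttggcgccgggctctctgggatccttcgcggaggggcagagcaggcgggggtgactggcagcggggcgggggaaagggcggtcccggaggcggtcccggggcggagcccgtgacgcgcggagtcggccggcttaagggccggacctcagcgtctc
Over the 250 bases before each start in RefSeq's promoter list, ACGTG on either strand was in 18.5% of 35116 listed windows and in 27 of 61 windows of the 35 members listed (44.3%). For GCGTG the shares were 32.2% and 41.0%, and for either one 43.2% and 68.9%. A gene can have several windows that overlap. A match is a string of letters, and binding was not measured.

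By day 12 of this time course the gap had narrowed for part of the program. Deprived cells had 7 higher and 12 lower members, against 34% and 18.4% of all genes. CA9 stayed low at 1.13, 0.468 and 0.862 TPM against 9.55, 10.4 and 6.88 TPM (-2.45 ± 0.19), and ZNF395 (-1.56 ± 0.09), EGLN3 (-1.12 ± 0.20), P4HA1 (-1.05 ± 0.09), NDRG1 (-0.85 ± 0.16) and VEGFA (-0.66 ± 0.07) fell too. LDHA (0.10 ± 0.09), BNIP3 (-0.01 ± 0.09) and PDK1 (-0.15 ± 0.12) no longer passed. SLC2A1 measured 12.8, 14.5 and 11.2 TPM in controls against 67.1, 74.7 and 71.4 TPM (2.39 ± 0.07, limma, adjusted p = 2.25e-17). PKM (0.73 ± 0.09), ENO2 (0.67 ± 0.12), HIF1A (0.57 ± 0.06), SLC2A3 (1.07 ± 0.15), hexokinase HK2 (0.65 ± 0.10) and GPI (0.39 ± 0.06) also rose. All 3 glucose entry genes tested were thus higher in this time course. In the 3 other HepG2 experiments at day 12, without inhibitor or AhR guide, LDHA, BNIP3, PDK1 and SLC2A3 fell each time and SLC2A1 rose. HK2 fell there in the AhR inhibitor experiment, rose in the IDO/TDO one and did not pass with the control guide.

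The change of the deprivation effect with time was itself tested, in the time course alone. The other HepG2 experiments hold day 12 only, so a move from day 9 to day 12 cannot be checked in them. From day 3 to day 9 the effect moved down for 28 members and up for 2, against 12.8% and 18.1% of all genes. CA9 (-3.70 ± 0.27), PFKFB4 (-2.33 ± 0.20) and NDRG1 (-2.27 ± 0.22) moved most, and EGLN3 (-2.02 ± 0.28), VEGFA (-0.84 ± 0.09), PDK1 (-1.30 ± 0.17), BNIP3 (-1.01 ± 0.12) and LDHA (-0.73 ± 0.13) moved with them. SLC2A1 (0.91 ± 0.10) and HIF1A (0.48 ± 0.09) moved up. From day 9 to day 12 it moved up for 23 members and down for 1, against 7.86% and 3.76% of all genes. PFKFB4 (1.52 ± 0.20), SLC2A3 (1.49 ± 0.22) and SLC2A1 (1.34 ± 0.10) led, with NDRG1 (0.96 ± 0.22), LDHA (0.69 ± 0.13), BNIP3 (0.69 ± 0.12) and PDK1 (0.59 ± 0.17). VEGFA moved down (-0.29 ± 0.09), and CA9 (0.61 ± 0.27), EGLN3 (0.77 ± 0.28) and HIF1A (0.03 ± 0.09) did not pass. The day 12 controls varied, with NDRG1 at 174, 189 and 114 TPM and replicate 3 lowest, yet no count for day 12 against its controls moved by over 1.5 times when 1 library was left out.

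Hepatocyte markers separated the same groups. Their summed level was 5620 to 5680 TPM in day 3 controls, 16300 to 17500 at day 9 and 20700 to 22000 at day 12, against 4820 to 5080, 5960 to 6720 and 5900 to 6240 TPM in deprived cells. The part of this difference in the results on the members was not tested.

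Genes of the pathway outside the 42 members are read against the 29.4% of all genes that rose and the 19.7% that fell at day 9. Of 12 HIF pathway components tested 6 rose and 1 fell. EPAS1, the second HIF alpha subunit, measured 14.8, 15.2 and 15.5 TPM in controls and 21.3, 20.8 and 22.1 TPM in deprived cells, a change of 0.47. CITED2, an inhibitor of HIF that is itself a target, measured 28.1, 27.3 and 27 TPM against 9.06, 9.32 and 9.92 TPM, a change of -1.45. Of 7 other glycolysis isoenzymes 2 rose and 2 fell: the hexokinase HKDC1 (1.57) and the liver transporter SLC2A2 (0.30) against the enolase ENO3 (-0.81) and liver pyruvate kinase PKLR (-0.59). Of 12 genes of pyruvate entry and lactate export 4 rose and 5 fell.

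**Figure D2:**
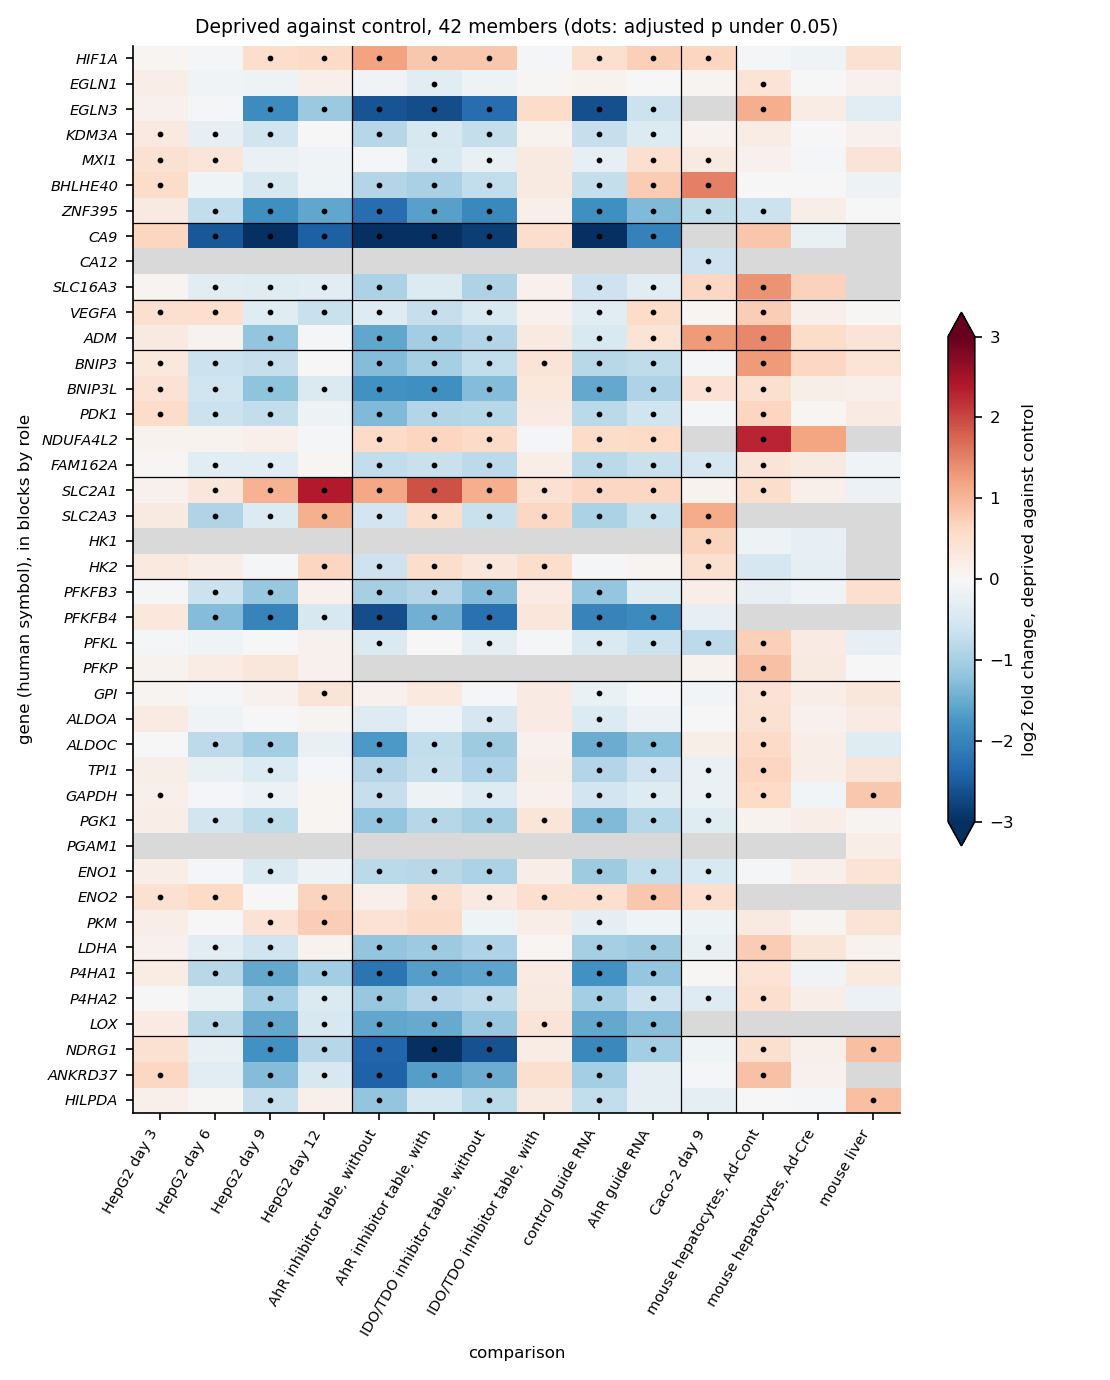
Log2 fold changes of the 42 members (rows, in blocks by role) in 14 comparisons of deprived with control samples (columns). Red is higher in deprived samples, blue lower, grey not tested, the colour scale ends at 3 in either direction, and dots mark an adjusted p under 0.05. In HepG2, 27 members are lower at day 9 and 12 at day 12 of the time course, and 29, 30 and 32 in the day 12 columns without AhR inhibitor, IDO/TDO inhibitor or AhR guide, while the column with IDO/TDO inhibitor has 0 lower and 7 higher. In mouse hepatocytes with Ad-Cont 22 are higher and 1 lower.

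Each of the other HepG2 experiments at day 12 had controls of its own. Without inhibitor or AhR guide, 29 of 38 members tested fell in the AhR inhibitor table, 30 in the IDO/TDO inhibitor table and 32 with the control guide, while 3, 5 and 4 rose. Of all genes 16.9%, 14.3% and 17.1% fell and 44.6%, 53.6% and 43.6% rose, with medians of all genes of 0.23, 0.30 and 0.20. Across these 3 experiments, 28 members fell each time and 3 rose each time, the risers being HIF1A, SLC2A1 and NDUFA4L2, a subunit-like protein of respiratory chain complexes. NDUFA4L2 was at or below 2.64 TPM in every library of these experiments. Of the 11142 genes tested in all 3, 9.42% fell each time and 35% rose each time. With day 12 of the time course added, 12 of 38 members fell in all and 2 rose in all, against 7.95% and 25.9% of 11087 genes. The 12 were EGLN3, ZNF395, CA9, the lactate exporter SLC16A3, VEGFA, BNIP3L, PFKFB4, P4HA1, P4HA2, LOX, NDRG1 and ANKRD37, and the 2 were HIF1A and SLC2A1. ENO2 rose in the IDO/TDO table as deposited (0.28 ± 0.11), but its change was -0.06 after median scaling.

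With the IDO/TDO inhibitor, NDRG1 and CA9 in deprived cells were not below their controls. NDRG1 measured 343, 377 and 390 TPM in controls, 61, 58.8 and 58 TPM in deprived cells, 361, 376 and 366 TPM in controls with inhibitor, and 433, 476 and 378 TPM in deprived cells with inhibitor. CA9 in the same order measured 11.2, 11.9 and 8.28 TPM, then 0.72, 0.63 and 0.463, then 13.7, 11.5 and 12.6, and 20.6, 21.1 and 14.8 TPM. For both genes the deprived cells without inhibitor lay below every library of the other groups. Without inhibitor CA9 fell by 2.82, NDRG1 by 2.62, EGLN3 by 2.29, PFKFB4 by 2.25, LDHA by 0.93, PDK1 by 0.85, BNIP3 by 0.75 and VEGFA by 0.46, while SLC2A1 rose by 1.09 ± 0.07 and HIF1A by 0.81 ± 0.09.

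With the inhibitor, deprivation raised 7 members and lowered 0 by limma, against 0.854% and 0.532% of all genes. At an unadjusted p under 0.05 the numbers were 28 and 0, with no share of all genes at that level to compare. The risers were ENO2 (0.47 ± 0.11), SLC2A1 (0.45 ± 0.07), BNIP3 (0.38 ± 0.06), PGK1 (0.37 ± 0.06), HK2, SLC2A3 and LOX. Leaving out 1 library at a time gave 3 (without replicate 2 of the controls with inhibitor) to 11 (without replicate 3 of the deprived cells with inhibitor). CA9 (0.53 ± 0.14, adjusted p = 0.0836), EGLN3 (0.56 ± 0.14), NDRG1 (0.22 ± 0.07), VEGFA (0.12 ± 0.08), PDK1 (0.24 ± 0.10), LDHA (0.07 ± 0.08) and HIF1A (-0.03 ± 0.09) did not pass. Few of all genes thus separated the deprived libraries with inhibitor from their controls. CYP1A1, a classic target gene of AhR, measured 6.99, 7.27 and 7.25 TPM in controls and 9.74, 8.24 and 8.99 TPM in deprived cells with inhibitor (0.29 ± 0.08, adjusted p = 0.121), and 22, 20.7 and 23.9 TPM in deprived cells without it. No value here checks the medium of these libraries apart from their label, and whether the label or the medium plays a part was not tested.

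The difference between the deprivation effects with and without this inhibitor passed for 35 of 38 members. It was positive for 32 and negative for 3, against 12.2% and 41.5% of all genes, whose median was -0.27. CA9 (3.35 ± 0.20), EGLN3 (2.84 ± 0.19) and NDRG1 (2.84 ± 0.10) moved most, followed in size among the genes given throughout by BNIP3 (1.14 ± 0.08), PDK1 (1.09 ± 0.14), LDHA (1.00 ± 0.11) and VEGFA (0.58 ± 0.11). HIF1A (-0.84 ± 0.13), SLC2A1 (-0.64 ± 0.10) and NDUFA4L2 (-0.62 ± 0.19) moved down, NDUFA4L2 at or below 2.09 TPM in every library.

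In control medium the inhibitor changed 0 members in either direction by limma, against 0.00872% and 0% of all genes, and 0 members at an unadjusted p under 0.05. Fold changes lay between -0.17 and 0.26, with EGLN3 at 0.06, NDRG1 at -0.01 and CA9 at 0.26. Under deprivation it raised 32 members and lowered 3, against 16.1% and 49.6% of all genes. CA9 rose by 3.62 ± 0.14, EGLN3 by 2.91 ± 0.14, NDRG1 by 2.83 ± 0.07, PDK1 by 1.18 ± 0.10, BNIP3 by 1.15 ± 0.06, LDHA by 0.99 ± 0.08 and VEGFA by 0.70 ± 0.08. HIF1A, NDUFA4L2 and SLC2A1 fell by 0.85, 0.61 and 0.60. Outside the members CITED2 measured 4.94, 5.8 and 3.86 TPM in deprived cells and 22.6, 23.1 and 20 TPM with inhibitor, next to 18.9, 20.8 and 17.1 TPM in controls. Hepatocyte markers summed to 22100 to 22900 TPM in controls, 6310 to 6580 in deprived cells and 19800 to 20500 TPM in deprived cells with inhibitor, and their part in these results was not tested.

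**Figure D3:**
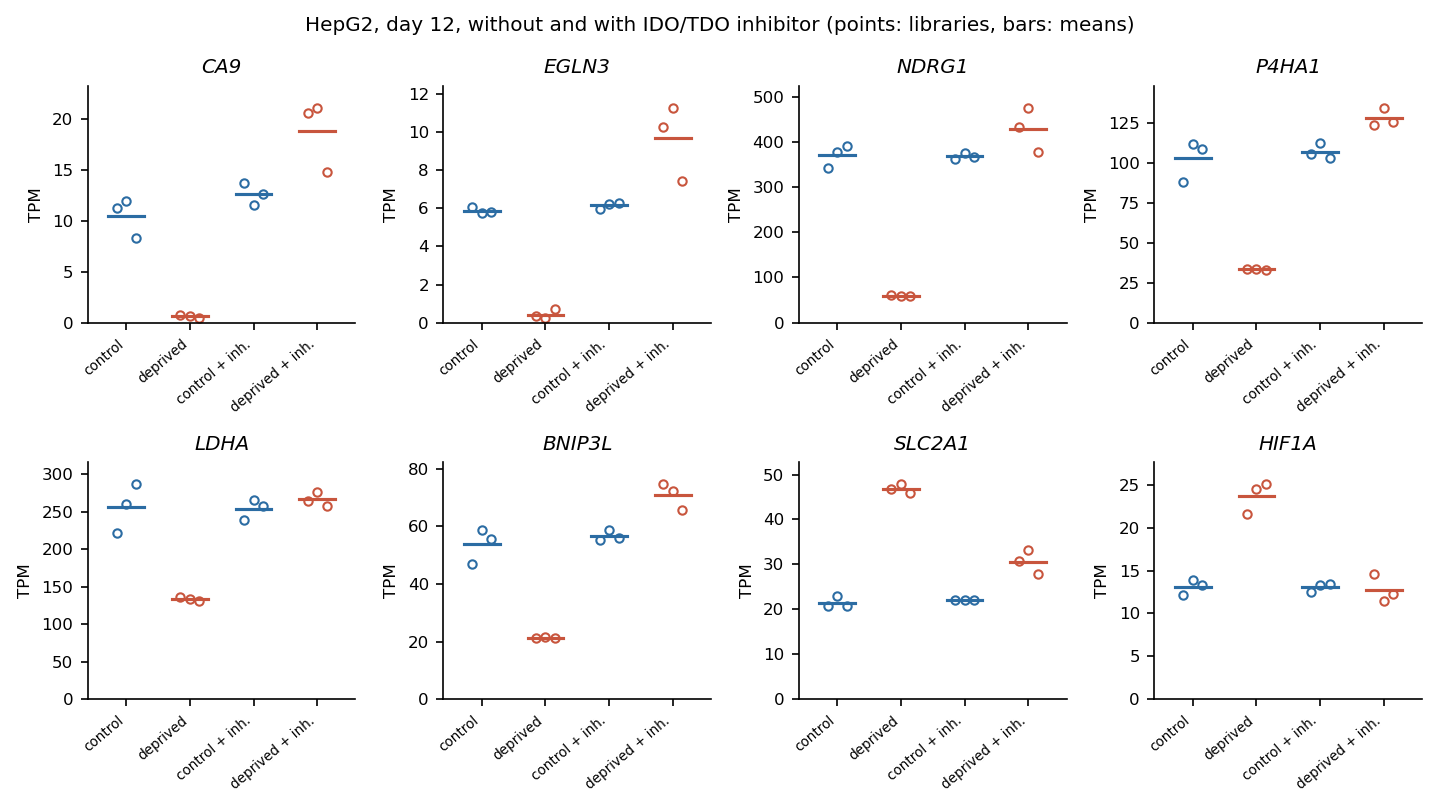
TPM of 8 members in the 4 groups of the IDO/TDO inhibitor experiment in HepG2 at day 12, each point a library and each bar a group mean, with inh. for inhibitor. Deprived cells with inhibitor sit at 378 to 476 TPM for NDRG1 and 11.4 to 14.6 TPM for HIF1A, near or above the controls, while deprived cells without it sit at 58 to 61 and 21.6 to 25.1 TPM.

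The AhR guide RNA changed the members in control medium as well. The AHR transcript did not differ between guides (-0.09 ± 0.13 in control and 0.17 ± 0.13 in deprived medium), but reads from the 3′ end do not check an edited site. CYP1A1 measured 36.2, 32 and 32.4 TPM in deprived cells with the control guide and 1.83, 1.16 and 2.22 TPM with the AhR guide (-3.68 ± 0.12). With the control guide, deprivation lowered CA9 by 3.59, EGLN3 by 2.64, PFKFB4 by 2.01, NDRG1 by 1.93, LDHA by 0.99, BNIP3 by 0.83, PDK1 by 0.81 and VEGFA by 0.34. It raised SLC2A1 by 0.62 ± 0.09, ENO2 by 0.50 ± 0.10 and HIF1A by 0.49 ± 0.08.

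With the AhR guide, deprivation lowered 22 members and raised 8, against 15.6% and 37.6% of all genes, whose median was 0.15. Of the 32 members that fell with the control guide, 22 fell with the AhR guide too, 6 did not pass and 4 rose (MXI1, BHLHE40, VEGFA and ADM). All genes that fell with the control guide were not divided in this way, so the split is not shown to be particular to the members. CA9 fell by 2.03, PFKFB4 by 1.92, ZNF395 by 1.32, ALDOC by 1.22, LDHA by 1.07, NDRG1 by 1.02, BNIP3 by 0.76, EGLN3 by 0.65 and PDK1 by 0.60. ENO2 (0.81 ± 0.10), BHLHE40 (0.77 ± 0.15), HIF1A (0.71 ± 0.08), SLC2A1 (0.63 ± 0.09) and VEGFA (0.55 ± 0.06) rose.

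The difference between guides was positive for 15 members and negative for 0 by limma, against 6.16% and 8.23% of all genes. At an unadjusted p under 0.05 it was positive for 19 and negative for 0, with no share of all genes to compare. EGLN3 (1.99 ± 0.21), CA9 (1.55 ± 0.24), BHLHE40 (1.49 ± 0.21), NDRG1 (0.91 ± 0.21), VEGFA (0.89 ± 0.08) and ADM (0.87 ± 0.21), a vasodilator peptide, were among the 15. Under deprivation EGLN3 was at or below 0.475 TPM and CA9 at or below 0.74 TPM with either guide. Their differences therefore mostly reflect control medium, where the AhR guide lowered them by 2.11 and 1.59. LDHA (-0.08 ± 0.12), SLC2A1 (0.01 ± 0.13), BNIP3 (0.06 ± 0.10), PDK1 (0.21 ± 0.15) and HIF1A (0.22 ± 0.11) did not pass.

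In control medium the AhR guide lowered 23 members and raised 0 by limma, against 13.4% and 23.3% of all genes. At an unadjusted p under 0.05 it lowered 24 and raised 0, with no share of all genes to compare. EGLN3 measured 7.81, 9.63 and 6.19 TPM with the control guide and 1.51, 0.787 and 0.875 TPM with the AhR guide (-2.11 ± 0.15). BHLHE40 measured 14.8, 12.8 and 9.94 TPM against 2.52, 3.53 and 4.08 TPM (-1.63 ± 0.15). VEGFA measured 43.5, 40.2 and 40.9 TPM against 23.1, 24 and 21.6 TPM (-0.83 ± 0.06). None of the 3 overlapped between guides. CA9 fell by 1.59, NDRG1 by 1.35, PDK1 by 0.34 and BNIP3 by 0.24, and LDHA (-0.22 ± 0.08), SLC2A1 (0.06 ± 0.09) and HIF1A (0.17 ± 0.08) did not pass.

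Under deprivation the guides differed in 4 members, 2 higher and 2 lower, against 7.53% and 4.48% of all genes. HIF1A rose by 0.39 ± 0.08 and the isomerase TPI1 by 0.25 ± 0.05, MXI1 fell by 0.40 and LDHA by 0.30. EGLN3 measured 0.455, 0.306 and 0.475 TPM with the control guide and 0.306, 0.302 and 0.285 TPM with the AhR guide, and CA9 was at or below 0.74 TPM in all 6 libraries. VEGFA (0.05), SLC2A1 (0.07), PDK1 (-0.13), BNIP3 (-0.18) and NDRG1 (-0.44) did not pass. Hepatocyte markers summed to 20500 to 21000 TPM and 16400 to 17300 TPM in control medium with the control and AhR guide, and to 5500 to 5730 and 6610 to 6920 TPM under deprivation.

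**Figure D4:**
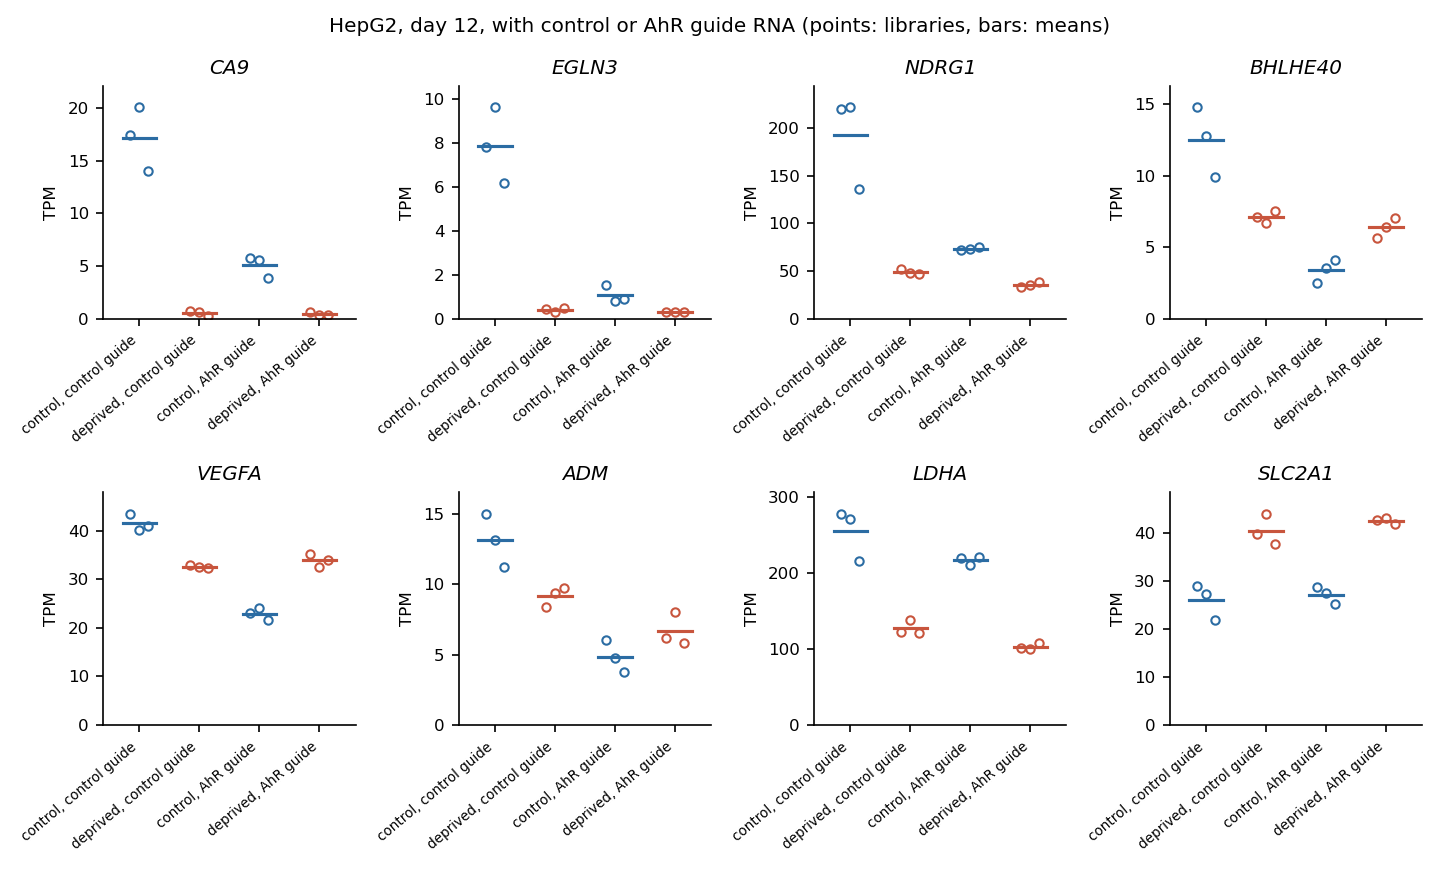
TPM of 8 members in HepG2 at day 12 after the control guide or the AhR guide, in control (blue) or deprived (red) medium, each point a library and each bar a group mean. EGLN3 in control medium drops from 6.19 to 9.63 TPM with the control guide to 0.787 to 1.51 TPM with the AhR guide, while LDHA separates by medium under either guide.

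With the AhR inhibitor too, more members fell than rose. CYP1A1 measured 14.3, 15.2 and 14.3 TPM in deprived cells and 1.76, 1.33 and 1.82 TPM in deprived cells with inhibitor (-2.57 ± 0.17), while its difference in control medium (0.42 ± 0.17) did not pass. With the inhibitor, deprivation lowered 25 members and raised 6, against 12.4% and 45.1% of all genes, whose median was 0.24. CA9 measured 23.3, 22 and 12.7 TPM in controls with inhibitor and 0.044, 0.11 and 0.14 TPM in deprived cells with inhibitor (-4.17 ± 0.19), without overlap. NDRG1 (-3.12 ± 0.36), EGLN3 (-2.66 ± 0.29), BNIP3L (-1.85 ± 0.16), LDHA (-1.08 ± 0.13), BNIP3 (-1.0 ± 0.27), PDK1 (-0.88 ± 0.16) and VEGFA (-0.68 ± 0.07) fell, and SLC2A1 (1.92 ± 0.17), HIF1A (0.81 ± 0.09) and ENO2 (0.48 ± 0.14) rose. Without it the falls were 3.42 for CA9, 2.66 for PFKFB4, 2.58 for EGLN3, 2.43 for ANKRD37, 2.37 for NDRG1, 1.33 for PDK1, 1.31 for BNIP3, 1.19 for LDHA and 0.39 for VEGFA, and the rises 1.21 ± 0.09 for HIF1A and 1.17 ± 0.17 for SLC2A1.

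The difference between those effects passed for 5 members upward and 1 downward, against 12.9% and 9.57% of all genes, and for 2 and 1 after quantile normalization. HK2 measured 3.95, 3.96 and 4.04 TPM in controls and 2.4, 2.39 and 2.02 TPM in deprived cells, against 1.73, 1.35 and 1.66 TPM and 2.79, 2.89 and 2.38 TPM with inhibitor (difference 1.13 ± 0.14). HK2 was thus lower in deprived medium in the libraries without the inhibitor and higher in those with it, which also carry another date. SLC2A3 (1.09 ± 0.27) and SLC2A1 (0.75 ± 0.24) also moved up and HIF1A (-0.40 ± 0.13) down. CA9 and NDRG1 (-0.75 each), VEGFA (-0.29), EGLN3 (-0.08), LDHA (0.11), BNIP3 (0.31) and PDK1 (0.46) did not pass.

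Per the file headers, the libraries with AhR inhibitor carry another date than those without. An effect of the inhibitor within 1 medium therefore cannot be told apart from the date. Nor can the difference between the deprivation effects with and without the inhibitor. Replicate 3 of the controls with inhibitor also stood apart, with NDRG1 at 316, 303 and 101 TPM. In control medium 13 members were lower and 2 higher with inhibitor, against 21.3% and 14.6% of all genes. SLC2A3 (-1.90 ± 0.19), GAPDH (-1.40 ± 0.13), ANKRD37 (-1.04 ± 0.30), SLC2A1 (-1.03 ± 0.17) and LDHA (-0.37 ± 0.13) were lower, CA9 (0.66 ± 0.19) and HIF1A (0.51 ± 0.09) higher. EGLN3 (-0.30), PDK1 (-0.43), BNIP3 (-0.49), VEGFA (0.16) and NDRG1 (-0.07) did not pass, and without that replicate NDRG1 was higher with inhibitor (0.46) and 7 members were. Under deprivation 5 were lower, led by GAPDH (-0.84 ± 0.13), SLC2A3 (-0.81 ± 0.19) and MXI1 (-0.52 ± 0.11), and 1, ZNF395 (0.51 ± 0.16), was higher, against 21.7% and 18.6% of all genes. NDRG1 (-0.82 ± 0.36) and the other 7 genes given throughout, between -0.38 (EGLN3) and 0.11 (HIF1A), did not pass.

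Kyn lowered fewer members than deprivation did in the HepG2 experiments at day 12 without inhibitor or AhR guide. No test set these effects against each other. CYP1A1 measured 1.86, 1.5 and 1.84 TPM with DMSO and 1.78, 2.08 and 2.46 TPM with Kyn (0.18 ± 0.17), which did not pass. The inhibitor's effect on it did not pass either, at -0.41 ± 0.17 with DMSO and 0.10 ± 0.17 with Kyn, and with the inhibitor Kyn raised it by 0.69 ± 0.17. CYP1A1 therefore does not check in these libraries that Kyn or the inhibitor acted on AhR. Kyn lowered 8 of 38 members and raised 2, against 5.54% and 6.11% of all genes. CA9 measured 12.5, 14.8 and 14.3 TPM with DMSO and 5.24, 6.35 and 7.78 TPM with Kyn (-1.01 ± 0.13, limma, adjusted p = 0.000283). LOX (-0.67 ± 0.13), NDRG1 (-0.41 ± 0.09) and SLC16A3 (-0.35 ± 0.06) fell as well. SLC2A3 measured 6.66, 8.94 and 8.21 TPM against 12.1, 19.8 and 14.8 TPM (0.87 ± 0.19), and P4HA1 174, 193 and 189 TPM against 228, 249 and 238 TPM (0.36 ± 0.05). None of these 3 pairs of groups given by library overlapped. EGLN3 (-0.33), VEGFA (-0.19), PDK1 (-0.17), LDHA (-0.16), BNIP3 (-0.11), SLC2A1 (-0.09) and HIF1A (0.01) did not pass.

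With the AhR inhibitor, Kyn lowered 10 members and raised 0 by limma, against 9.1% and 1.74% of all genes. At an unadjusted p under 0.05 it lowered 15 and raised 1, with no share of all genes to compare. CA9 measured 14.2, 12.5 and 11.9 TPM with DMSO and 3.79, 5.28 and 4.57 TPM with Kyn (-1.33 ± 0.13), so its fall was also present with the inhibitor. SLC2A3 (-0.81 ± 0.19), P4HA2 (-0.48 ± 0.10), PGK1 (-0.41 ± 0.07) and HIF1A (-0.34 ± 0.09) fell. NDRG1 (0.05), VEGFA (0.13), EGLN3 (0.10), SLC2A1 (-0.16), PDK1 (-0.21), LDHA (-0.03) and BNIP3 (-0.07) did not pass. After quantile normalization 5 members fell, and after median scaling 4.

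The difference between the Kyn effects passed for 1 member upward and 4 downward, against 2.11% and 6.83% of all genes, whose median was -0.12. NDRG1 (0.46 ± 0.13) moved up and SLC2A3 (-1.68 ± 0.27), P4HA2 (-0.63 ± 0.15), P4HA1 (-0.51 ± 0.08) and PGK1 (-0.33 ± 0.09) down. CA9 (-0.32 ± 0.19, adjusted p = 0.314), HIF1A (-0.35 ± 0.13), VEGFA (0.32 ± 0.17) and EGLN3 (0.44 ± 0.23) did not pass, nor did SLC2A1, PDK1, BNIP3 and LDHA, between -0.07 and 0.13.

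With DMSO the AhR inhibitor changed 0 members by limma, against 0% of all genes in either direction. At an unadjusted p under 0.05 it raised 2 and lowered 0, with no share of all genes to compare. CA9 had a difference of -0.10 ± 0.13, EGLN3 of -0.10 ± 0.17 and HIF1A of 0.09 ± 0.09, with the other genes given throughout between -0.03 and 0.05. With Kyn it lowered 6 and raised 3, against 17.6% and 4.36% of all genes with a median of -0.13, and after quantile normalization it raised 8 and lowered 4. SLC2A3 (-1.54 ± 0.19), P4HA2 (-0.63 ± 0.10), P4HA1 (-0.56 ± 0.05) and CA9 (-0.42 ± 0.13) were lower and NDRG1 (0.48 ± 0.09), LOX (0.43 ± 0.13) and SLC16A3 (0.18 ± 0.06) higher. The other 7 genes given throughout lay between -0.26 (HIF1A) and 0.33 (EGLN3) and did not pass. Hepatocyte markers summed to 13000 to 14000 TPM with Kyn and inhibitor and to 9940 to 11400 TPM in the other groups, and their part in this was not tested.

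In Caco-2 cells the members split evenly, with 10 of 37 higher and 10 lower at day 9 of deprivation, against 14.3% and 19.5% of all genes. BHLHE40 measured 3.74, 3.14 and 3.62 TPM in controls and 10.9, 12.2 and 12.6 TPM in deprived cells (1.52 ± 0.11, limma, adjusted p = 4.21e-06). SLC2A3 measured 120, 114 and 112 TPM against 251, 241 and 257 TPM (1.11 ± 0.05), and HIF1A 13.3, 14.5 and 16.9 TPM against 22.3, 22.4 and 27 TPM (0.65 ± 0.11). In each of these the deprived libraries were all above the controls. ADM (1.27 ± 0.12), SLC16A3 (0.63 ± 0.11), BNIP3L (0.43 ± 0.07) and 3 of 4 glucose entry genes (SLC2A3, HK1 and HK2) rose.

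Glycolytic enzymes were on the lower side in Caco-2, with 5 of 10 tested falling and ENO2 rising. ENO1 fell by 0.45 and LDHA by 0.22, from 39.6, 41.1 and 40 TPM to 33.9, 34.3 and 35.3 TPM. The liver-type phosphofructokinase PFKL (-0.79 ± 0.12), ZNF395 (-0.77 ± 0.08), the carbonic anhydrase CA12 (-0.62 ± 0.14) and FAM162A (-0.51 ± 0.06) fell too. VEGFA (0.06 ± 0.09), SLC2A1 (0.11 ± 0.06), PDK1 (-0.07 ± 0.14), BNIP3 (-0.05 ± 0.13) and NDRG1 (-0.14 ± 0.06) did not pass. CA9 was at or below 0.167 TPM in all 6 libraries, and CA9 and EGLN3 were not tested. Of 35 members tested here and in HepG2 at day 9, 8 fell in both lines, 1 (HIF1A) rose in both and 5 fell in HepG2 and rose in Caco-2, against 4.6%, 5.75% and 2.84% of the 10642 genes tested in both. Intestinal markers summed to 137 to 146 TPM in controls and 82.3 to 88.7 TPM in deprived cells. All 6 hepatocyte markers were present in Caco-2 as well, with sums of 2470 to 2590 TPM in controls and 1360 to 1540 TPM in deprived cells. The part of either set of markers in these results was not tested.

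In mouse hepatocytes with Ad-Cont most members that passed were higher under deprivation. It raised 22 of 36 members tested and lowered 1, against 4.32% and 5.46% of all genes, and the members' median was 0.47 against 0 for all genes. Ndufa4l2 measured 17.5, 9.14 and 12.3 TPM in controls and 94.4, 53.5 and 54 TPM in deprived cells (2.28 ± 0.26, limma, adjusted p = 0.000377). Adm measured 16.3, 19.1 and 17.7 TPM against 65.4, 38.5 and 48.7 TPM (1.44 ± 0.15). Slc16a3 measured 13.7, 11.9 and 11.6 TPM against 45.7, 29.6 and 26.4 TPM (1.35 ± 0.18). No deprived library overlapped the controls in these 3 genes, and replicate 1 was the highest of the deprived libraries in each.

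The rise took in every role. All 5 mitochondrial genes rose, among them Bnip3 (1.28 ± 0.18) and Pdk1 (0.64 ± 0.17), both secreted signals with Vegfa at 0.73 ± 0.11, and 6 of 9 glycolytic enzymes with Ldha at 0.77 ± 0.10. Ldha measured 227, 217 and 219 TPM in controls and 449, 361 and 328 TPM in deprived cells. Gapdh, among the enzymes that rose, was at or below 8.82 TPM in every library. Egln3 rose by 1.08 ± 0.13, Egln1 by 0.40 ± 0.08, Slc2a1 by 0.53 ± 0.10 and Ndrg1 by 0.47 ± 0.11, and Zfp395, the counterpart of ZNF395, fell by 0.64. Hif1a measured 29.3, 33.8 and 30.6 TPM against 31.4, 29.3 and 30.7 TPM (-0.03 ± 0.09) and the groups overlapped. Car9 was at or below 1.58 TPM in all libraries. Of 35 members tested in both, 15 fell in HepG2 at day 9 and rose here, 1 rose in both and 1 fell in both, against 1.44%, 1.3% and 1.5% of the 9011 genes tested in both whose symbols match apart from case. Of 12 HIF pathway components outside the members, Cited2 rose and Egln2 fell.

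With Ad-Cre, deprivation changed 0 members in either direction by limma, against 0.214% and 0.115% of all genes. At an unadjusted p under 0.05, 8 were higher and 0 lower, with no share of all genes to compare. Ahr itself measured 10, 9.58 and 9.32 TPM in controls with Ad-Cont and 7.14, 8.29 and 7.94 TPM with Ad-Cre (-0.28 ± 0.09, adjusted p = 0.494), and 3′ reads may lie outside a floxed exon. Cyp1a1 was at or below 0.367 TPM in all 12 hepatocyte libraries and was not tested, so it gives no check of the deletion. Ndufa4l2 measured 12.4, 11.9 and 10.8 TPM in controls and 34.7, 23.8 and 26.1 TPM in deprived cells with Ad-Cre, so these groups did not overlap either. Bnip3 (0.63 ± 0.18), Ldha (0.36 ± 0.10), Egln3 (0.22 ± 0.13), Vegfa (0.16 ± 0.11), Ndrg1 (0.16 ± 0.11), Slc2a1 (0.15 ± 0.10), Pdk1 (0.06 ± 0.17) and Hif1a (-0.13 ± 0.09) did not pass. Where replicates were blocked by number, 2 members rose.

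The difference between Ad-Cre and Ad-Cont passed for 0 members by limma, against 0.181% of all genes upward and 0.0658% downward. At an unadjusted p under 0.05 it was negative for 18 and positive for 1, with no share of all genes at that level to compare. Egln3 (-0.86 ± 0.18, adjusted p = 0.0633), Bnip3 (-0.65 ± 0.25), Pdk1 (-0.58 ± 0.24), Vegfa (-0.57 ± 0.15), Ldha (-0.40 ± 0.14), Slc2a1 (-0.38 ± 0.14), Ndrg1 (-0.31 ± 0.15) and Hif1a (-0.09 ± 0.12) were below 0. With replicates blocked by number 2 members passed downward, and leaving out 1 library gave 0 to 2, with 2 without replicate 1 of the deprived cells with Ad-Cont and 2 without replicate 3 of the controls with Ad-Cre. As fitted, the test does not show that the response differs with Ad-Cre, nor that it is the same.

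Set against each other in deprived cells, Ad-Cre had 6 members lower than Ad-Cont and 0 higher by limma, against 0.518% and 0.51% of all genes. At an unadjusted p under 0.05, 19 were lower and 0 higher, with no share of all genes to compare. Slc16a3 measured 18.7, 14.4 and 16 TPM with Ad-Cre (-0.97 ± 0.18), Bnip3 5.75, 5.77 and 6.96 TPM (-0.90 ± 0.18) and Egln3 14.4, 13.4 and 14.7 TPM (-0.74 ± 0.13), all below the deprived libraries with Ad-Cont. Vegfa and Pfkp fell by 0.62 and Ldha by 0.48. Pdk1 (-0.54), Slc2a1 (-0.38), Ndrg1 (-0.19) and Hif1a (-0.10) did not pass. The count ran from 1, without replicate 2 of the deprived cells with Ad-Cre, to 10, without replicate 3 of the deprived cells with Ad-Cont.

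In control medium Ad-Cre changed 0 members by limma, against 0.0165% of all genes higher and 0.00823% lower. At an unadjusted p under 0.05, 2 were higher and 1 lower, with no share of all genes to compare. The genes given throughout lay between -0.25 (Bnip3) and 0.12 (Egln3 and Ndrg1). Stellate cell and fibroblast markers summed to 21.9 to 25.7 TPM in controls and 6.78 to 10.9 TPM in deprived cells with Ad-Cont, and to 26.9 to 30.1 and 15.3 to 17.2 TPM with Ad-Cre, and macrophage markers to 65.7 to 150 TPM across groups. Hepatocyte markers summed to 4550 to 5490 TPM over all 4 groups. The part of other cell types in these results was not tested.

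**Figure D5:**
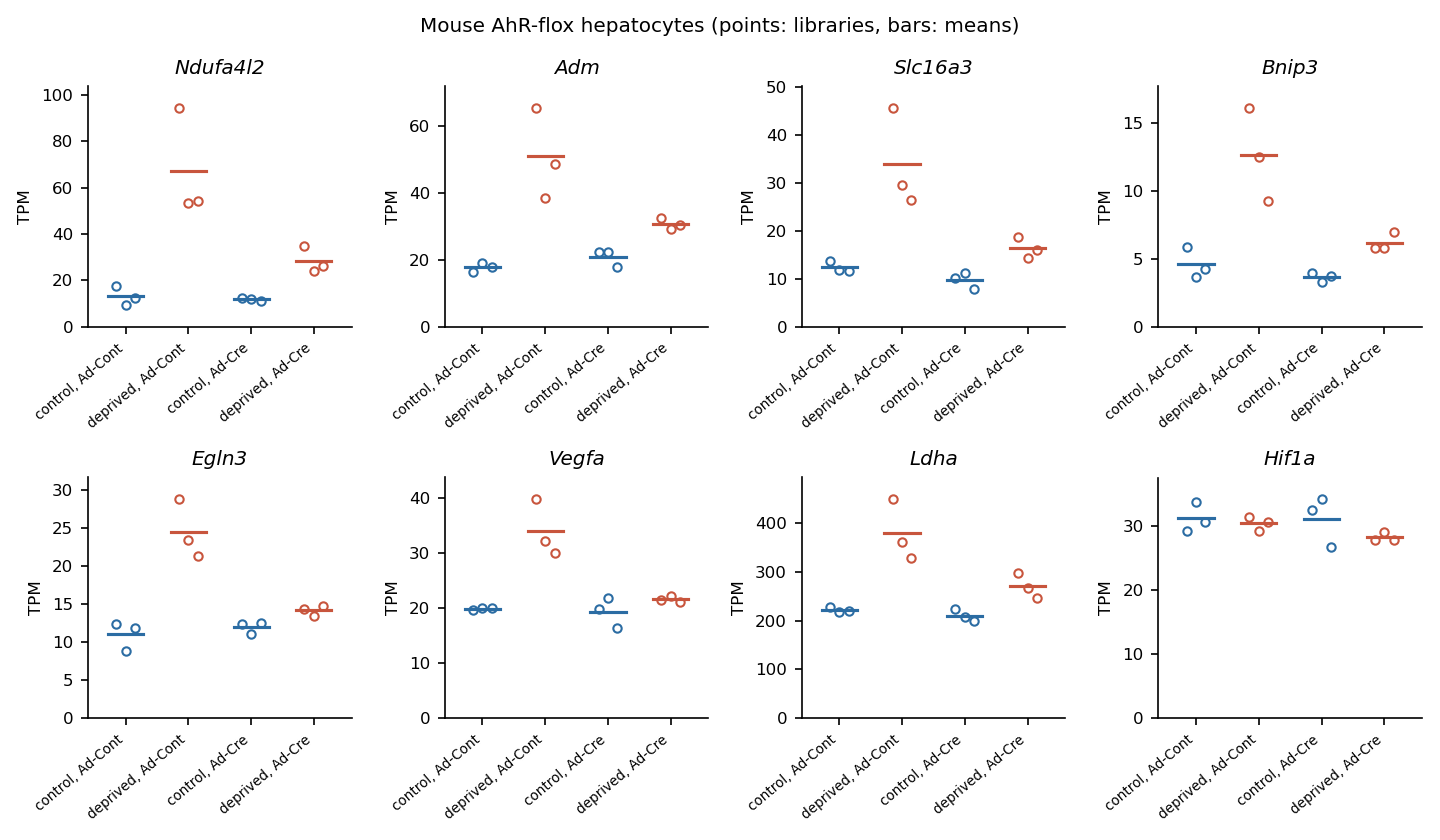
TPM of 8 members in mouse AhR-flox hepatocytes with Ad-Cont or Ad-Cre, in control (blue) or deprived (red) state, each point a library and each bar a group mean. Deprived cells with Ad-Cont are highest for 7 of the 8 genes, with Ndufa4l2 at 53.5 to 94.4 TPM against 23.8 to 34.7 TPM with Ad-Cre, while Hif1a lies at 26.7 to 34.2 TPM in all groups.

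In whole liver the deficient diet raised 3 of 31 members tested and lowered 0 by limma, against 2.25% and 1.16% of all genes. At an unadjusted p under 0.05 it raised 12 and lowered 1, with no share of all genes to compare. Ndrg1 measured 3.29, 2.24, 1.96 and 3.18 TPM on the control diet and 5.43, 7.23, 5.63 and 4.96 TPM on the deficient diet (0.90 ± 0.16, adjusted p = 0.0139). Hilpda measured 2.92, 4.23, 3.06 and 2.53 TPM against 4.89, 6.76, 10.6 and 5.74 TPM (0.90 ± 0.20, adjusted p = 0.0348). Both were higher in all 4 livers of the deficient diet than in any control. Gapdh rose by 0.82 ± 0.18 but was at or below 3.06 TPM in each library.

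Hif1a in liver measured 9.32, 14.3, 10.8 and 10.6 TPM against 16.5, 16.6, 15.8 and 13.8 TPM (0.46 ± 0.14, adjusted p = 0.0835). Bnip3 (0.42 ± 0.16), Pdk1 (0.24 ± 0.21), Ldha (0.11 ± 0.12), Vegfa (0.03 ± 0.12), Slc2a1 (-0.18 ± 0.20) and Egln3 (-0.33 ± 0.12) did not pass either. Car9 was at or below 0.097 TPM in every liver and was not tested. After quantile normalization, median scaling or removal of the filter 1 member rose, and the count ran from 0, without the control column numbered 3, to 5 when 1 column was left out. Endothelial markers summed to 14.6 to 27.6 TPM on the control diet and 26.5 to 35.9 TPM on the deficient diet, and their part in this was not tested.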

How the data were processed

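The authors deposited TPM values, which HOMER wrote per the file headers, for a single transcript of each symbol. The submitters' processing notes list STAR, HOMER, Bowtie2, hg38 and mm10, giving no roles. Libraries were made with a QuantSeq kit primed at the poly(A) tail, per the labels' protocols, which speak of cultured cells. Whether this holds for the liver libraries cannot be told. In the file headers the liver columns are named by run number and lack the trimming mark of the other columns. No source used here gives strand settings. TPM divides by transcript length although a 3′ kit does not sample by length. Reads on the listed transcripts were recovered because low values times length were whole multiples (within 0.1 reads, in 100% of those checked, up to 20 reads and 3000 bases). Reads elsewhere are not in these numbers. They ranged from 5213400 to 6518200 in Caco-2, 4049600 to 5822600 with Kyn or DMSO, 6263500 to 7810000 in mouse hepatocytes, 6067500 to 7671400 with guides, 6828000 to 11040400 in the time course, 11958200 to 14258700 with the IDO/TDO inhibitor, 5891700 to 19428500 with the AhR inhibitor and 13915100 to 19644400 in liver. The planned test depended on the unit, and TPM called for limma.

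Each table was fitted on its own with limma 3.58.1 (R 4.3.3) on log2(TPM + 1), by group means, with trend and robust eBayes, for 35 contrasts in all. Genes needed 1 TPM in 3 libraries (4 in liver). Genes tested numbered 10820 in liver, 12155 in mouse hepatocytes, 11888 in Caco-2 and 12488 for the HepG2 time course, and 11916, 11470, 11893 and 11798 for the AhR inhibitor, IDO/TDO inhibitor, guide and Kyn experiments. Two-sided p-values were adjusted by Benjamini-Hochberg, with a threshold of 0.05. Fits were tested on simulated data. Alternatives were a pseudocount of 0.1, no filter, quantile normalization, median scaling, a replicate block and leaving out 1 library.

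Members, lists and tests were chosen with earlier results of these data known. Named were HIF1A, CA9, VEGFA, PDK1, LDHA, SLC2A1, NDRG1, BNIP3 and EGLN3 wherever tested, and the 4 highest and 4 lowest called members at 5 TPM or more per deprivation or Kyn contrast (3 and 3 elsewhere); genes named to complete a role were chosen after their values were seen. Promoters shown are the 4 lowest called members at day 9 listed in the RefSeq table, with 1 chromosome left out. Calls shared between comparisons were set beside the same share over all genes tested in each. The 8 liver columns give no animal and stand for 10 labelled samples, of which 2 were not analysed here.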

Additional observations from a re-analysis of the deposited data

Results flagged for a closer look

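In the liver of the deficient diet 1 library lay far from the other 3 for Slc2a1, with 8.97 TPM against 4.43 to 5.19. Car9 met the same criterion with 0.034 TPM, but it was at 0 in the other 3 livers of that diet, where any value above 0 would. Of 84 groups of 4 looked at, 11 passed this criterion, which chance gives in about 1 in 20.

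The deprivation effect in the HepG2 time course differed between days by limma's test of the difference. From day 3 to day 9 it moved by 0.91 for SLC2A1, 0.48 for HIF1A, -3.70 for CA9, -2.33 for PFKFB4 and -2.27 for NDRG1. From day 9 to day 12 it moved by 1.52 for PFKFB4, 1.49 for SLC2A3, 1.34 for SLC2A1 and -0.29 for VEGFA.

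It also differed with treatment by the same test. With the AhR inhibitor the differences were 1.13 for HK2, 1.09 for SLC2A3, 0.75 for SLC2A1 and -0.40 for HIF1A. These cannot be told apart from the date, which differs between libraries with and without that inhibitor. With the IDO/TDO inhibitor they were 3.35 for CA9, 2.84 for EGLN3, 2.84 for NDRG1, -0.84 for HIF1A, -0.64 for SLC2A1 and -0.62 for NDUFA4L2. With the AhR guide they were 1.99 for EGLN3, 1.55 for CA9 and 1.49 for BHLHE40. EGLN3 and CA9 were at or below 0.475 and 0.74 TPM in all deprived libraries of that experiment. The Kyn effect differed with the AhR inhibitor by 0.46 for NDRG1, -1.68 for SLC2A3, -0.63 for P4HA2 and -0.51 for P4HA1.

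Some members that fell in HepG2 at day 9 rose in another system, and that difference between systems was not tested. Where libraries of the 2 media did not overlap in either system, these were BHLHE40 (1.52), ADM (1.27), SLC16A3 (0.63) and BNIP3L (0.43) in Caco-2. The fifth such gene in Caco-2 was SLC2A3 (1.11), whose libraries overlapped in HepG2. In mouse hepatocytes with Ad-Cont they were Adm (1.44), Slc16a3 (1.35), Bnip3 (1.28), Egln3 (1.08), Ankrd37 (0.87), Ldha (0.77), Vegfa (0.73), Pdk1 (0.64), Tpi1 (0.64), Gapdh (0.59), Aldoc (0.58), P4ha2 (0.50), Bnip3l (0.47), Ndrg1 (0.47) and Fam162a (0.38). Gapdh was at or below 8.82 TPM in every library of these hepatocytes.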

How the results depend on the processing

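The counts of members that fell at days 6, 9 and 12, without AhR inhibitor, IDO/TDO inhibitor or AhR guide, and of those that rose in mouse hepatocytes with Ad-Cont, stayed within 1.5 times under every alternative. The changes that follow have a cause that was not tested. With median scaling, members higher numbered 25 for deprived day 12 minus day 3, 2 for the AhR inhibitor difference (2 lower), 3 for deprivation without IDO/TDO inhibitor, 2 with the control guide, 1 in liver, 3 for the Kyn difference (2 lower), 12 for the inhibitor under Kyn (3 lower), and 1 for Kyn with inhibitor (4 lower). The AhR inhibitor then lowered 8 in control medium and 3 under deprivation, where 0 were higher, and the AhR guide under deprivation lowered 1. GPI in controls moved to 0.03 and ENO2 without IDO/TDO inhibitor to -0.06. With quantile normalization members higher numbered 2 for the AhR inhibitor difference, 2 without IDO/TDO inhibitor, 8 for the inhibitor under Kyn and 1 in liver, Kyn with inhibitor lowered 5, GPI moved to 0.07 and TPI1 under the AhR guide in control medium to -0.12. Without the filter, members lower numbered 0 for day 12 minus day 9, 5 for the IDO/TDO inhibitor under deprivation, 5 for Kyn with inhibitor, 3 for the AhR inhibitor under deprivation (0 higher) and 3 for Ad-Cre under deprivation. Members higher then numbered 2 for the AhR inhibitor difference, 4 with IDO/TDO inhibitor, 0 for the Kyn difference, 1 for the inhibitor under Kyn and 1 in liver. A pseudocount of 0.1 gave 1 higher for the AhR inhibitor in control medium and 2 under deprivation.

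Leaving out 1 library gave 5 to 7 higher at day 3, 3 to 11 with IDO/TDO inhibitor, 0 to 5 in liver, 1 to 4 for the inhibitor under Kyn and 0 to 1 for the Kyn difference. It gave 0 to 1 lower for day 12 minus day 9, 4 to 9 for Kyn with inhibitor, 0 to 2 for the guide under deprivation, 1 to 10 for Ad-Cre under deprivation, 0 to 1 for Ad-Cont and 0 to 2 for the Ad-Cre difference. For the AhR inhibitor it gave 2 to 9 higher and 0 to 7 lower (difference), 1 to 7 and 8 to 20 (control medium), and 0 to 1 and 3 to 4 (deprivation). The AhR inhibitor's effect in control medium ran from -0.19 to 0.28 for BHLHE40, -0.20 to 0.22 for BNIP3L and -0.35 to 0.46 for NDRG1, each highest without replicate 3 of the controls with inhibitor.

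After each gene's group mean was subtracted, same-numbered libraries of different groups correlated by -0.11 to 0.19. This gives no sign that the numbers pair them, but cannot exclude it. With a replicate block, 2 members rose with deprivation under Ad-Cre and 2 had a lower difference, and no other count moved by over 1.5 times. No paired analysis was possible in liver because its columns are not tied to animals. Depth limits members near or below 1 TPM, such as CA9 in Caco-2.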
